A study of Mus musculus with 16 samples.

Results

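The genes of the cytosolic ribosome, the protein part of the machine that translates cellular messenger RNA, were followed in mouse liver under 2 incretin peptides and calorie restriction. Members were the protein-coding genes whose symbols name a small-subunit (Rps) or large-subunit (Rpl, Rplp) protein, with Rpsa added, and without pseudogenes or ribosomal kinases. The rule found 84 of the 46078 genes in the count table, 32 for the small subunit and 52 for the large one. The low-count filter kept 81 of them among 12910 genes tested. The 3 members it dropped were Rpl3l, Rpl10l and Rpl39l, copies of Rpl3, Rpl10 and Rpl39 that are known mainly from striated muscle or testis. Their mean levels were 0.389, 0 and 0.0082 CPM, the count of a gene per M counts of its library after scaling for composition.

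All 16 livers came from C57BL/6 mice aged 22 weeks with diet-induced obesity and steatosis, and each of the 4 groups held 4 animals picked for sequencing from its treatment arm. Saline was the vehicle group, numbered 35, 50, 73 and 78 by the submitters. The calorie restriction group (7, 8, 52 and 79) ate less until its weight loss was equivalent. The other animals received Semaglutide (11, 15, 31 and 51), an agonist of the GLP-1 receptor, or Dicretin (14, 23, 64 and 65), which activates both that receptor and the glucagon receptor. The sources used here do not give the dose, the length of treatment or the sex of the animals, and no transgene or deletion is named for any group.

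A ribosome is built in the nucleolus from ribosomal RNA and a single copy of nearly every ribosomal protein, and most of these genes are active in all cell types. The small subunit reads the message and the large subunit joins the amino acids. Most of the messages begin with a C followed by a run of pyrimidines, the 5′ terminal oligopyrimidine or TOP motif, through which the kinase mTOR and the protein LARP1 control their translation and stability. In liver, the size of the ribosome pool is known to follow feeding, amino acids and hormones, glucagon among them.

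Promoter sequences are shown because the TOP start is the feature by which these messages are recognised, and because the genes printed span the range of responses described below. RefSeq start sites (GRCm38.p6) were found for 64 of the 84 members. Each line runs 5′ to 3′ on the gene's strand from 60 bases before to 15 bases after the annotated start, and capitals mark the pyrimidine run of a TOP start and any SP1 site or TATA box, on either strand, with the letters given after the sequences. Rpl13a (chr7:45128731-45128805, minus strand) had the highest fold change under Dicretin. Rps27 (chr3:90213634-90213708, minus) was also among the highest there, and Rps6 (chr4:86857353-86857427, minus) lay near the median of the members. Rps18 (chr17:33955651-33955725, minus) was among the highest under Semaglutide. Rps2 (chr17:24720003-24720077, plus), Rpl22l1 (chr3:28805448-28805522, plus) and Rpl4 (chr9:64173327-64173401, plus) had low values in at least 1 comparison.
Rpl13a: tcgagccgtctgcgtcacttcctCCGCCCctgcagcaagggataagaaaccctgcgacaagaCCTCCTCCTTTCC
Rps27: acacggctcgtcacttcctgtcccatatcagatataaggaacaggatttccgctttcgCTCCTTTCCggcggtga
Rps6: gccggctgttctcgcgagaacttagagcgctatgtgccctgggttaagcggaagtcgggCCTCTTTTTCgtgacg
Rps18: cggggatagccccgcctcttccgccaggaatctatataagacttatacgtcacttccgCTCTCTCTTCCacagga
Rps2: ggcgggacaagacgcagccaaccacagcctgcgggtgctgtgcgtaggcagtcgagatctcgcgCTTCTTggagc
Rpl22l1: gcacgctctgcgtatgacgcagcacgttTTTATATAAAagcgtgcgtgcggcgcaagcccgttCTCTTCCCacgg
Rpl4: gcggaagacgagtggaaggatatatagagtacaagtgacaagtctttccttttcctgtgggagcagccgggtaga

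A TOP start, here a C within 5 bases of the annotated start followed by at least 4 pyrimidines, was present in 40.8% of the 76 member windows and in 18.3% of all 32851 promoter windows in the table. Rpl13a carried a run of at least 13 pyrimidines, which reaches the end of its printed line, and Rps18 a run of 11. Rpl4 had no such C within 5 bases of its annotated start, although its printed line holds a pyrimidine run further upstream. With 20 bases allowed, a TOP start was present in 75% of member windows and 49.4% of all windows. The SP1 letters GGGCGG stood in 60.5% of the full-length member windows against 35.7% of all windows, and CCGGAAG, a site for ETS factors, in 35.5% against 8.86%. GGAAG, the core of that site and contained in it, stood in 93.4% against 71.4%, and the TATA box letters TATAAA in 9.21% against 13.6%. These are matches of letters on both strands, and nothing was measured on the promoters themselves. Members with a TOP start within 5 bases (29 tested) had a median log2 fold change of 0.67 under Dicretin against saline, and those without one (32) had 0.66. This split rests on the annotated start, so it may not separate TOP messages from others.

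Levels between genes were compared per length, as CPM per kilobase of the principal coding transcript averaged over the 16 libraries. Rps2, which lies beside the entry of the mRNA channel, was highest at 820.7, followed by Rpl41, the smallest ribosomal protein, at 751.7 and Rps27 at 751. Rplp1, part of the acidic stalk that recruits elongation factors, stood at 722.7, and Rps6, the classic substrate of S6 kinase, at 699.2. This order depends on the length used. Per kilobase of all annotated exons Rplp1 was highest, at the same 722.7, and Rps2 ranked 5 at 447.6, Rpl41 8 at 350.1 and Rps27 18 at 248.4. At the low end of the tested members, Rpl22l1 stood at 33.5, Rpl7l1 at 28.5, Rps15a at 24.3 and Rpl24 at 18.1 per kilobase of principal transcript. Rps15a measured 124.8 CPM on average, and its place rests on a principal transcript annotated at 5130 bases. Many members have processed pseudogenes that share their sequence. A median of 45.0% of the 50-base windows of a member's principal transcript was found in no other annotated gene and 1.35% for Rps27. Levels of members with little sequence of their own are uncertain for that reason. Rpl24 has 18.3% of its windows to itself and shares exons on its strand with 1 other annotated gene. Its reads may thus be split or dropped. The 822 pseudogenes that share windows with members held only 0.00353% to 0.00575% of the counts in a library.

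Libraries held 12.1 to 18.8 M gene counts. Hepatocyte markers dominated. Their summed level was 99890 to 119900 CPM in the saline livers and 80640 to 99260 CPM in the Dicretin livers. It was 129900 to 151200 CPM under calorie restriction, and Semaglutide gave 122900 to 149300 CPM. Of the 8 hepatocyte markers, 3 rose and 1 fell under Dicretin against saline. Markers of macrophages summed to 220.9 to 377.6 CPM in saline and 206.6 to 616 in Dicretin, and lymphocyte markers to at most 11.9 CPM in any library. Adipocyte markers were 51.4 to 91.2 CPM in saline and at most 19.8 CPM in any treated library, and both tested markers fell in every treated group. Bile duct markers summed to 63.1 to 81.4 CPM in saline and 28.5 to 49.8 in Dicretin, and 1 of 5 tested fell there. Under Dicretin, 2 of 5 erythroid, 1 of 8 stellate cell and 1 of 9 lymphocyte markers also fell and 1 of 6 endothelial markers rose. With 17.5% of all genes higher and 19.2% lower in that comparison, nothing is read from these Dicretin counts. Under Semaglutide 1 of 9 lymphocyte markers fell, where 2.62% of all genes did. Under calorie restriction 1 of 9 macrophage markers fell and 1 of 8 hepatocyte markers rose, where 4.11% of all genes fell and 3.42% rose. In bulk tissue, fewer cells of a type and less RNA per cell cannot be told apart. The part of differences in marker levels in the results on ribosomal protein genes was not tested. Library Semaglutide 11 stood apart in its members and in the length trend described next, as did Dicretin 14 in the opposite direction, so results are given with and without them where they matter.

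The mean share of all gene counts in ribosomal protein messages was larger in each treated group than in saline. The share was 1.63%, 1.78%, 1.75% and 1.96% in the saline livers, with a mean of 1.78% ± 0.137 (SD, n = 4). It was 2.06%, 2.18%, 1.85% and 2.12% under calorie restriction (2.05% ± 0.145). Semaglutide livers gave 3.99% in animal 11 and 2.25%, 2.63% and 2.11% in the others (2.74% ± 0.856), and Dicretin livers gave 1.99%, 2.38%, 2.92% and 3.28% (2.65% ± 0.571). On this share every Semaglutide and Dicretin library lay above every saline library, Dicretin 14 only just. Among calorie-restricted livers 1 library, animal 52, lay inside the saline range. The large subunit held 1.49 times the counts of the small subunit in saline, 1.45 times under calorie restriction, 1.42 times under Semaglutide and 1.47 times under Dicretin on average, and between 1.32 times in Semaglutide 11 and 1.55 times in Dicretin 14 over single livers. A few liver messages take much of each library. Albumin alone held 7.76% to 8.88% of counts in saline and 4.56% to 7.02% in Dicretin, and without the 20 most abundant genes the mean shares were 2.33%, 2.72%, 3.71% and 3.39% in the same order of groups. Without those genes Dicretin 14, at 2.509%, lay below Saline 78, at 2.595%, so Dicretin and saline overlapped.

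**Figure D1:**
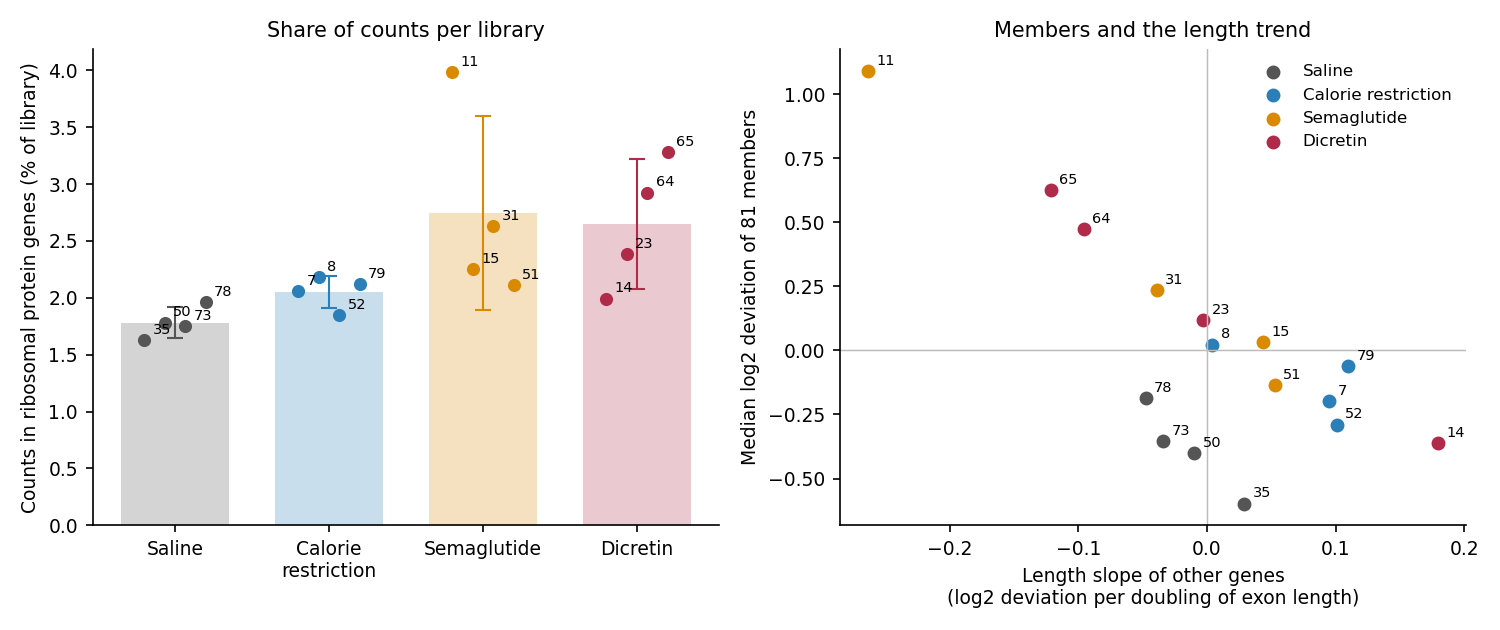
Share of gene counts in ribosomal protein genes (percent, left) for the 16 livers by group, with points for libraries numbered by animal, bars for the mean and lines for the SD of 4. The right panel sets the median log2 deviation of the 81 members against the length slope of the other genes (log2 deviation per doubling of exon length) in each library, and Semaglutide 11, with a share of 3.99% and a slope of -0.26, lies apart in both.

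Because these messages are short, with a median principal transcript of 761 bases against 2846 for the other genes tested, any trend of counts on gene length between libraries moves them together. The trend was measured per library over non-members, as the change in log2 deviation from the gene's 16-library mean for each doubling of exon length. It was 0.03, -0.01, -0.03 and -0.05 in saline, 0.10, 0.00, 0.10 and 0.11 under calorie restriction, -0.26, 0.04, -0.04 and 0.05 under Semaglutide, and 0.18, 0.00, -0.10 and -0.12 under Dicretin. A negative slope means relatively more counts on short genes. No difference of group means passed: it was 0.01 for Dicretin against saline (p = 0.971), -0.04 for Semaglutide against saline (p = 0.857) and 0.09 for calorie restriction against saline (p = 0.0571) by exact two-sided permutation tests, for which 0.0286 is the smallest possible p with 4 against 4. It was -0.13 for Semaglutide against calorie restriction (p = 0.0857), -0.09 for Dicretin against calorie restriction (p = 0.229) and 0.04 for Dicretin against Semaglutide (p = 0.714) by the same exact test. After adjustment over the 6 pairs of groups the p-values were 0.257 to 0.971. An adjusted p under the threshold would need several pairs at the smallest possible p together, so no conclusion is drawn from these tests. Libraries also differed within groups. The median member deviation was 1.09 in Semaglutide 11 and -0.13 to 0.24 in its group mates, and -0.36 in Dicretin 14 against 0.12, 0.47 and 0.63 in Dicretin 23, 64 and 65.

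Ribosomal protein messages were more abundant in Dicretin livers than in saline livers. Relative to all other genes, 42 of the 81 tested members rose and 0 fell, by edgeR's quasi-likelihood test at an adjusted p under 0.05, and all 81 fitted values lay above 0 with a median log2 fold change of 0.66 and a range of 0.06 to 1.44. Among all genes tested, 17.5% rose, 19.2% fell and the median was -0.01. The increase covered both subunits, with 17 of 32 small-subunit genes (median 0.71) and 25 of 49 large-subunit genes (median 0.64). The direction is relative: when libraries were scaled by the members themselves, their median became 0.00 and that of all genes -0.58.

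Rpl13a, a large-subunit protein also known as an interferon-linked translational silencer, had the highest value. It measured 261.2, 287.8, 304.1 and 318.3 CPM in saline and 459.6, 785.5, 947.5 and 974.9 CPM in Dicretin. The 4 Dicretin livers all lay above the 4 saline livers, with animal 14 the lowest of its group, and the log2 fold change was 1.44 ± 0.30 (SE, adjusted p = 0.00126, edgeR). The gene lies at chr7:45125558-45128761 on the minus strand of mm10 and shares exons on that strand with 2 other annotated genes, so reads over the shared stretch may be split or dropped.

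Rpl7l1, a copy of Rpl7 (chr17:46773907-46782672, minus strand), had the smallest p. It measured 48.2, 56.8, 48.1 and 58.5 CPM in saline and 84.5, 92.8, 92.1 and 105.6 CPM in Dicretin. The groups were well apart, and the log2 fold change was 0.83 ± 0.14 (adjusted p = 0.000157, edgeR). Its principal transcript has 90.8% of its windows to itself.

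Rps28, a small-subunit protein near the path of the message, measured 89.2, 97.4, 121.1 and 119.8 CPM in saline and 122.3, 201.5, 220.4 and 301.1 CPM in Dicretin. The groups did not overlap, although Dicretin 14 lay only just above the highest saline liver, and the log2 fold change was 0.98 ± 0.22 (adjusted p = 0.00161, edgeR). Rplp0, the base of the stalk, measured 320.5, 347.6, 316.8 and 434.6 CPM in saline and 475.8, 595.4, 740.5 and 847.2 CPM in Dicretin. It rose by 0.91 ± 0.21 (adjusted p = 0.00273, edgeR), again with no overlap. These 4 genes kept their call whichever single library was left out, as did Rpl35 (0.94 ± 0.26) and Rpl36al (0.79 ± 0.20).

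Rps27 (chr3:90212522-90213651, minus strand), a zinc-finger protein of the small subunit, showed how far library spread reached. It measured 131.8, 165.1, 160.4 and 202.1 CPM in saline and 147.4, 275.8, 431.9 and 538.4 CPM in Dicretin. Dicretin 14 fell inside the saline range while the other Dicretin livers were higher, and the log2 fold change of 1.08 ± 0.35 (adjusted p = 0.0212, edgeR) lost its call without Dicretin 64, Dicretin 65 or Saline 35. Only 12 members had no overlap between the groups, against 15.7% of all genes that were higher without overlap. Without the same libraries, the number of members called was 21, 14 and 19, and without Dicretin 14 it was 70.

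Other members with known roles were spread along this range. Rps6 (725.5 ± 206.4 CPM against 451.2 ± 69.0) rose by 0.69 ± 0.21, a call that was lost without Dicretin 65 or Saline 35. Rpl5, which with Rpl11 and 5S ribosomal RNA binds Mdm2, rose by 0.78 ± 0.24 and lost the call without Dicretin 65, while Rpl11 had 0.34 ± 0.25 (adjusted p = 0.313, edgeR). Rpsa (0.66), also described as a laminin receptor, Rplp2 (0.65), the partner of Rplp1, and Rps27a (0.75), made as a fusion with ubiquitin, passed narrowly and lost the call without any 1 of 5 libraries, Dicretin 64 and 65 and Saline 35, 50 and 73. Rps3 (0.88), at the mRNA entry, and Rpl41 (0.89) also rose, the former losing the call without Dicretin 64, Dicretin 65 or Saline 35 and the latter without Dicretin 65. Rplp1 (0.48), Rpl36a (0.39) and Rpl22 (0.31) did not pass.

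The lowest values belonged to Rpl22l1 (0.06), Rps2 (0.18), Rpl31 (0.21) and Rpl4 (0.22). Rps2 measured 666.3, 683.2, 736.5 and 810.2 CPM in saline and 585.4, 865.4, 869.1 and 968.5 CPM in Dicretin. Dicretin 14 was the lowest of these 8 livers and the other Dicretin livers the highest, and the log2 fold change was 0.18 ± 0.18 (adjusted p = 0.444, edgeR). Rpl4, whose protein lines the exit tunnel of the large subunit, measured 494.9 ± 32.9 CPM in saline and 578.3 ± 67.1 CPM in Dicretin.

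**Figure D2:**
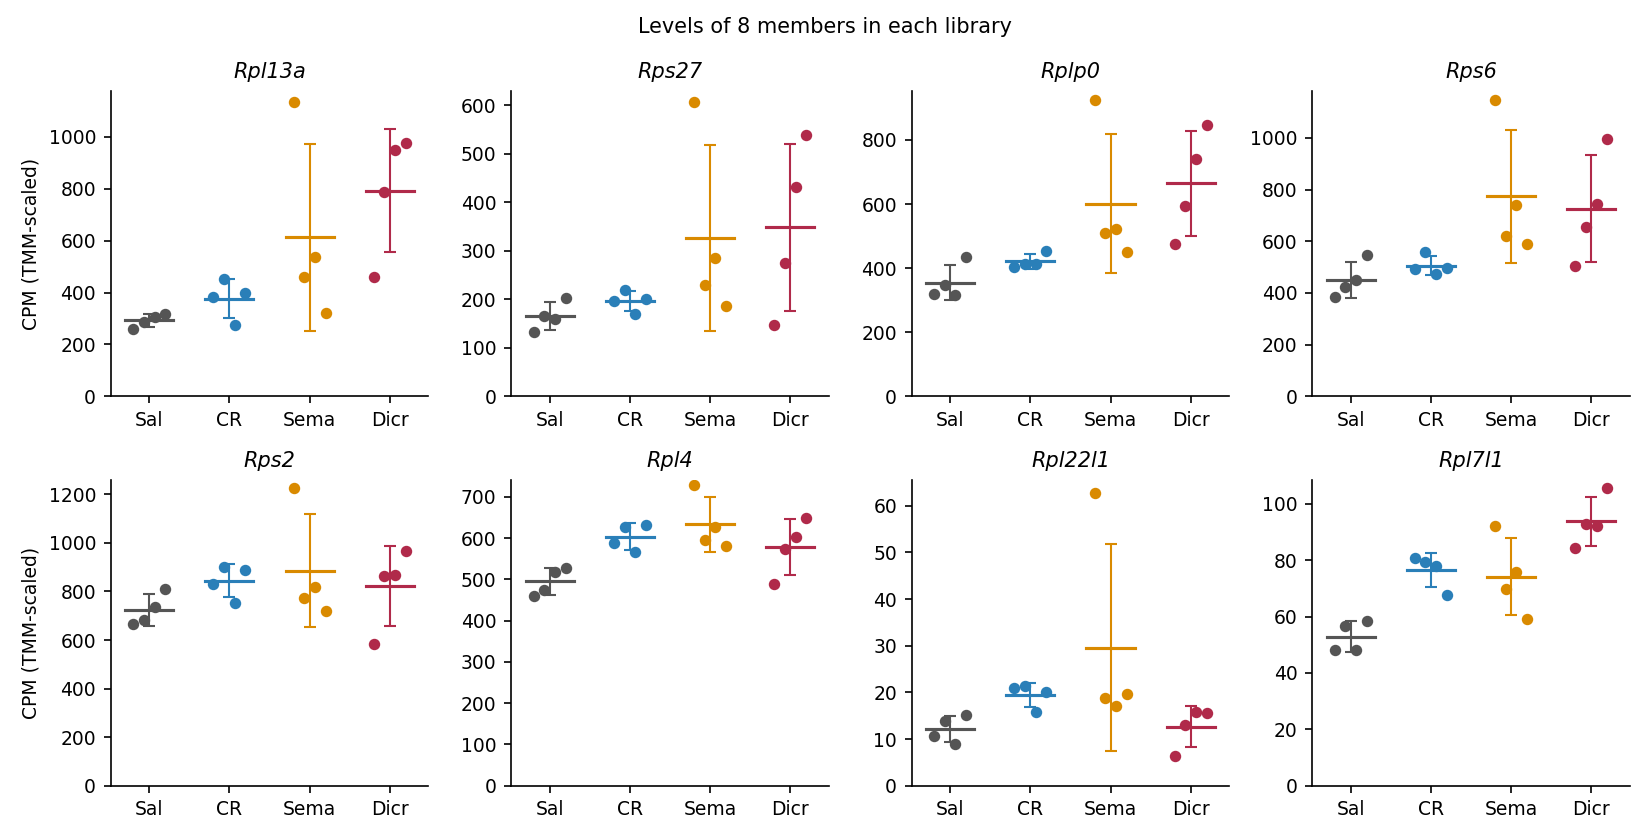
CPM of 8 members in each of the 16 livers, by group (Sal, saline; CR, calorie restriction; Sema, Semaglutide; Dicr, Dicretin), with points for libraries, lines for the mean and bars for the SD of 4. Rpl13a in Dicretin reaches 459.6 to 974.9 CPM against at most 318.3 CPM in saline, while Rps2 overlaps between those groups.

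Semaglutide livers had fitted values above saline in all tested members, and few of them passed. The median log2 fold change against saline was 0.76, with a range of 0.29 to 1.28 and all 81 values above 0, yet 12 members rose and 0 fell. Of all genes tested, 1.56% rose and 2.62% fell. Of these, 5 belong to the small subunit, Rps3a1, Rps6 and Rpsa among them, and 7 to the large one, namely Rpl3, Rpl8, Rpl10, Rpl6, Rpl28, Rpl36al and Rplp0. Between the groups 51 members did not overlap, all of them higher in Semaglutide, against 6.42% of all genes. Both drug comparisons use the same 4 saline livers, so they are not independent, and Saline 35 had the lowest median member deviation of the saline livers, at -0.60.

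Rpsa measured 282.5, 308.6, 310.8 and 383.8 CPM in saline and 973, 457.8, 523.8 and 411.3 CPM in Semaglutide. No liver overlapped, animal 11 was far above the rest, and the log2 fold change was 0.88 ± 0.24 (adjusted p = 0.0466, edgeR). Rps6 measured 382.6, 424.8, 451.9 and 545.4 CPM in saline and 1145, 620.1, 740.9 and 587.9 CPM in Semaglutide, a log2 fold change of 0.78 ± 0.21 (adjusted p = 0.0484, edgeR) with the same order of animals. Rplp0 (0.76) and Rpl36al (0.71) also rose. All 4 lost the call without Semaglutide 11, Semaglutide 31, Saline 35, Saline 50 or Saline 73, among others, and the number of members called was 1, 4, 0, 1 and 1 without those libraries. Without Semaglutide 15 or 51 it was 24 and 49. The median without Semaglutide 11 was 0.43.

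The highest fitted values under Semaglutide belonged to genes that did not pass. Rpl22l1, the copy of Rpl22, had 1.28 ± 0.36 (adjusted p = 0.0527, edgeR), Rps21 1.13, Rps18 1.10, Rpl13a 1.07, Rps12 1.04 and Rps27a 1.03. Without Semaglutide 11 these values were 0.61, 0.56, 0.53, 0.59, 0.57 and 0.57. Rps18, in the head of the small subunit, measured 197.7 ± 24.4 CPM in saline and 423.4 ± 278.4 CPM in Semaglutide, where animal 11 alone gave 837.1 CPM and the others 235.2 to 325 CPM. The lowest were Rps2 (0.29), Rpl4 (0.36), Rpl29 (0.46), Rpl24 (0.46), Rpl21 (0.47) and Rpl7l1 (0.49).

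Calorie-restricted livers, matched for weight loss, gave smaller values. The median log2 fold change against saline was 0.25, 78 of 81 values lay above 0, and the range was -0.10 to 0.69. Only Rpl7l1 rose and 0 members fell, against 3.42% and 4.11% of all genes, and 6 members had an unadjusted p under 0.05. Rpl7l1 measured 80.7, 79.4, 77.9 and 67.5 CPM, all above the highest saline liver at 58.5 CPM, with a log2 fold change of 0.53 ± 0.14 (adjusted p = 0.0247, edgeR). That call was lost without calorie restriction 7, 8 or 52, or without Saline 35 or 73, with adjusted p-values of 0.0288 to 0.0823 over the libraries left out. Rpl22l1 again had the highest value, 0.69 ± 0.36 (adjusted p = 0.269, edgeR), at 15.7 to 21.5 CPM against 8.91 to 15.1 CPM in saline with no overlap. Rpl8 (0.47), Rps16 (0.47) and Rpl3 (0.46), which shapes the peptidyl transferase centre, were also among the highest. Rpl24 (-0.10), Rpl41 (-0.09) and Rps24 (-0.02) were the members below 0. In all, 18 members lay above saline without overlap, against 11.0% of all genes.

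**Figure D3:**
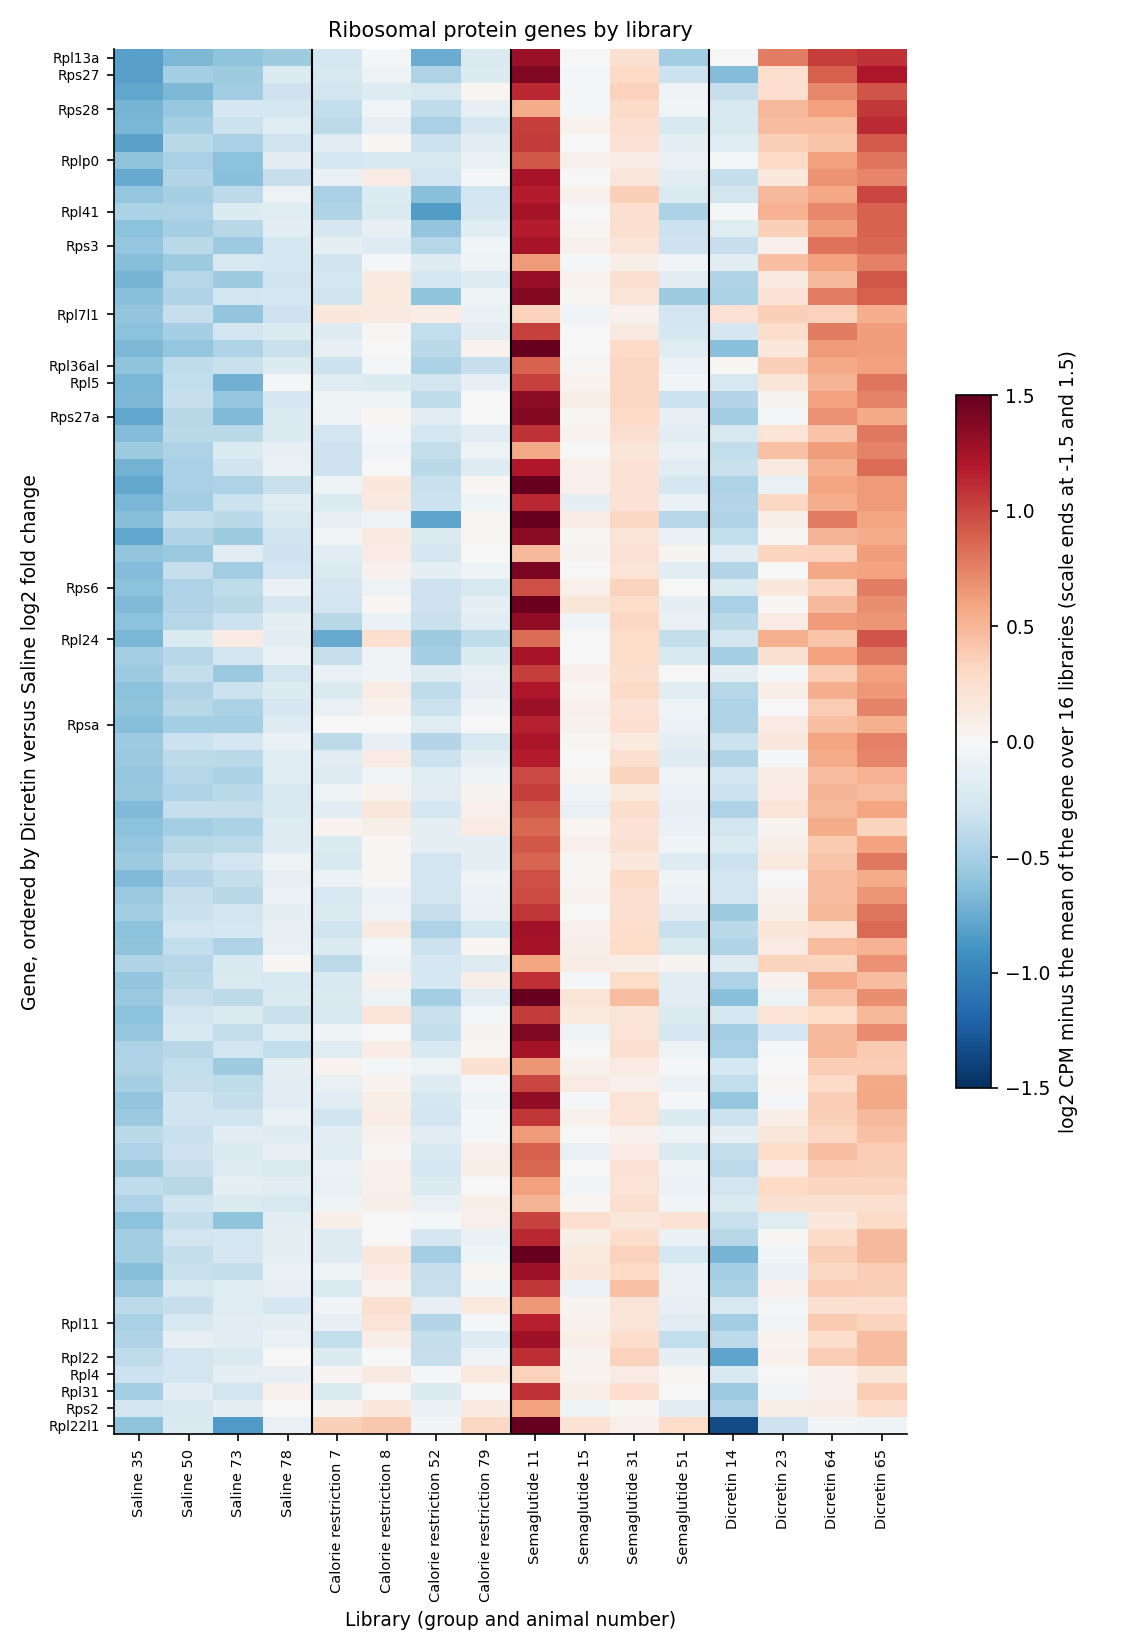
Log2 CPM (0.1 added) of the tested members in each of the 16 livers minus the gene's mean over all 16, one line per gene in order of its Dicretin value against saline and one column per library by group, with names for some of the genes described in the text and a colour scale that ends at 1.5 in either direction. Whole columns shift together, most of all Semaglutide 11, and most saline values lie below the mean.

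Dicretin and calorie restriction were compared directly to set the co-agonist beside weight loss alone. Here 12 members rose with Dicretin and 0 fell, against 15.1% and 16.2% of all genes, with a median of 0.36 and a range of -0.63 to 1.07. The share of members that rose was no higher than that of all genes, so nothing is read from the count. The 12 included Rpl13a, Rpl41, Rps24, Rpl35, Rpl24, Rps28, Rpl36al, Rps26, Rpl23a, Rplp0 and Rps10. Rpl24 lost its call without Dicretin 23, 64 or 65 or calorie restriction 7, 52 or 79. Rplp0 lost it without Dicretin 64 or 65 or calorie restriction 7, 8 or 52. Rpl35 lost it without Dicretin 65 or calorie restriction 52, and Rps24 without Dicretin 65. Rpl41 measured 276, 324.2, 210 and 315.8 CPM under calorie restriction and 368, 539.2, 622.2 and 697.8 CPM under Dicretin. Its groups did not overlap, and the log2 fold change was 0.98 ± 0.28 (adjusted p = 0.0123, edgeR). Rpl13a rose by 1.07 ± 0.30 (adjusted p = 0.0115, edgeR) and Rpl36al by 0.69 ± 0.20 (adjusted p = 0.0119, edgeR), and these 3 kept their call with any single library left out. The count itself ran from 4 without Dicretin 65 to 28 without Dicretin 14, and it was 7 without Dicretin 64, 6 without calorie restriction 7 and 7 without calorie restriction 52. Rpl22l1 (-0.63), Rpl4 (-0.06), Rps2 (-0.04) and Rpl3 (-0.03) were the members below 0, and 5 members were higher without overlap against 13.2% of all genes.

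Semaglutide against calorie restriction gave a median of 0.54, a range of -0.04 to 0.89 and 0 members called by edgeR, against 6.12% of all genes, although 47 members had an unadjusted p under 0.05. DESeq2 called 4 and limma-voom 0. Rps12 had the highest value at 0.89 ± 0.30 (adjusted p = 0.0838, edgeR), and Rpl7l1 alone lay below 0. The median was 0.19 without Semaglutide 11.

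Dicretin against Semaglutide, a comparison of different peptides at doses not given here, gave a median of -0.11. It cannot set agonism at the glucagon receptor apart from other differences between them. One member fell, Rpl22l1, against 17.1% of all genes, and 0 rose, against 14.8%. Rpl22l1 (chr3:28805436-28807424, plus strand) measured 62.8, 18.9, 17.1 and 19.6 CPM in Semaglutide and 6.32, 13, 15.8 and 15.5 CPM in Dicretin. Every Dicretin liver lay below every Semaglutide liver, and the log2 fold change was -1.23 ± 0.36 (adjusted p = 0.0148, edgeR). The call was lost without Semaglutide 11 or Dicretin 14, and the log2 fold change ranged from -1.41 to -0.56 over the libraries left out. Rpl22l1 is also overlapped by an exon of a gene on the opposite strand. The median of all members turned to 0.21 without Semaglutide 11 and to 0.38 without Semaglutide 11 and Dicretin 14, so its sign rests on these libraries. Rpl13a lay 0.37 ± 0.30 higher under Dicretin (adjusted p = 0.374, edgeR).

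Removing the length trend changed how many members passed. With each library's loess trend on exon length taken out as an offset, 72 members rose in Dicretin against saline, 64 in Semaglutide and 21 in calorie restriction, and 0 fell in each, with medians of 0.75, 0.71 and 0.39. All genes called with that offset were 42.4%, 6.5% and 10.3%. Between treatments 19 members rose in Dicretin against calorie restriction (34.4% of all genes called), and 3 rose and 1 fell in Dicretin against Semaglutide (35.4%). The offset raised the median of all genes in Dicretin against saline from -0.01 to 0.10, and the split of all genes from 2255 higher and 2479 lower to 3205 and 2271. The union of all annotated exons of these genes has a median of 1781 bases, against 761 for their principal transcripts. The offset was therefore also computed on principal transcripts. Then 69, 70 and 58 members rose, 0 fell, and the medians were 0.60, 0.57 and 0.50, with 43.5%, 7.52% and 11.9% of all genes called. Rpl22l1 was the member below 0 in Dicretin under that offset, at -0.09.

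Between the treatments the medians depended on the offset used. With the principal transcript offset the median was 0.09 for Dicretin against calorie restriction, 0.08 for Semaglutide against calorie restriction and 0.01 for Dicretin against Semaglutide. With the exon-length offset it was 0.31, 0.29 and 0.02 in the same order. With that offset and both Semaglutide 11 and Dicretin 14 left out it was 0.45, 0.13 and 0.36. Under the principal transcript offset 9 members rose in Dicretin against calorie restriction, Rpl41, Rpl13a and Rplp0 among them, and 3 fell, Rps29, Rpl30 and Rpl22l1, with 35.2% of all genes called. In Dicretin against Semaglutide 3 rose under it, Rpl41, Rps26 and Rpl13a, and 4 fell, Rpl31, Rpl3, Rpl35a and Rpl22l1, with 36.4% called. Semaglutide against calorie restriction had 0 calls with edgeR under both offsets (6.83% and 7.21% of all genes), with 22 members at an unadjusted p under 0.05 under the exon offset and 7 under the principal one.

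Against saline, members of the most common length class had higher medians than other genes of that class. Among genes with a principal transcript of 500 to 1000 bases, the 47 members had a median of 0.65 under Dicretin and the 664 non-members 0.12. The pair of medians was 0.75 and 0.23 under Semaglutide, and 0.25 and -0.17 under calorie restriction. Between treatments the order could turn. Under 500 bases, the 14 members had 0.36 and the 58 non-members 0.53 in Dicretin against calorie restriction, and -0.29 and -0.01 in Dicretin against Semaglutide. With Semaglutide 11 and Dicretin 14 left out, 80 members rose under Dicretin, 18 under Semaglutide and 11 under calorie restriction, beside 42.4%, 5.02% and 14.4% of all genes called in that fit.

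**Figure D4:**
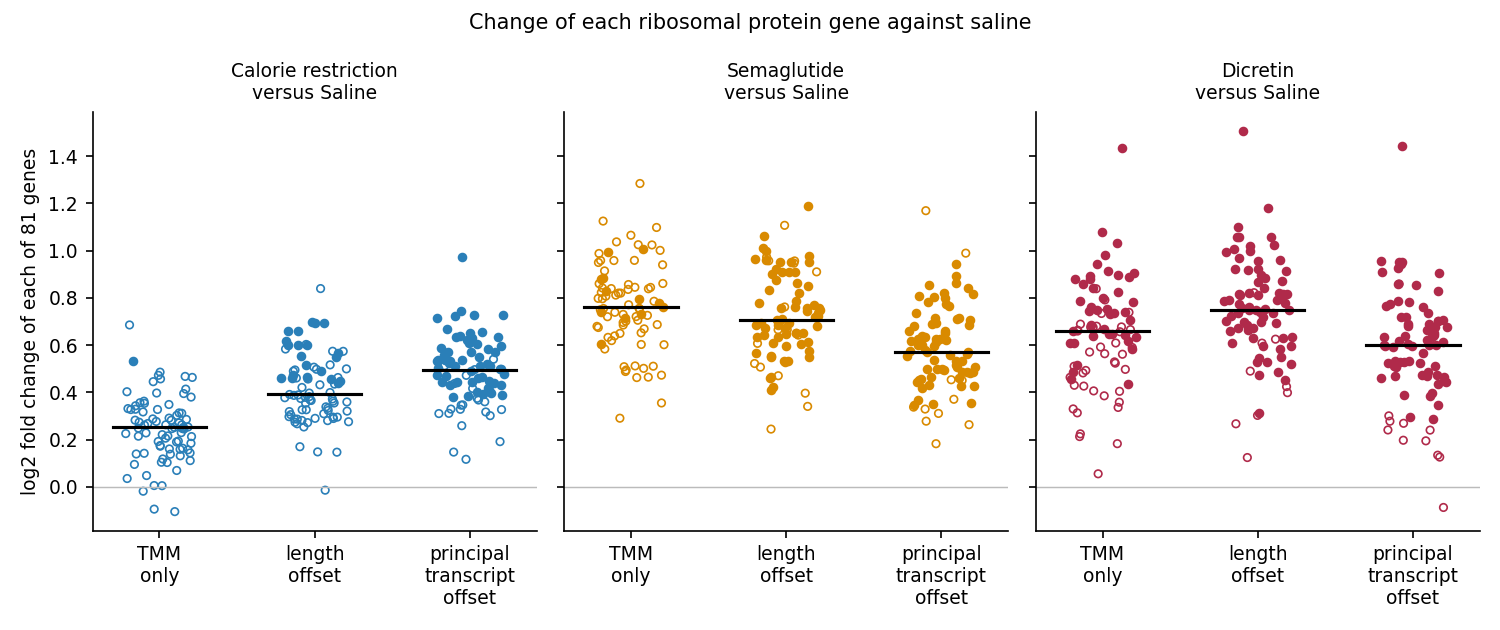
Log2 fold change of each tested member in the 3 comparisons against saline under TMM scaling, with the exon-length offset and with the principal transcript offset (filled, adjusted p under 0.05; open, not; black line, median). The medians stay above 0 in all 3 settings, from 0.25 to 0.76, and the number of filled points rises with either offset.

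**Figure D5:**
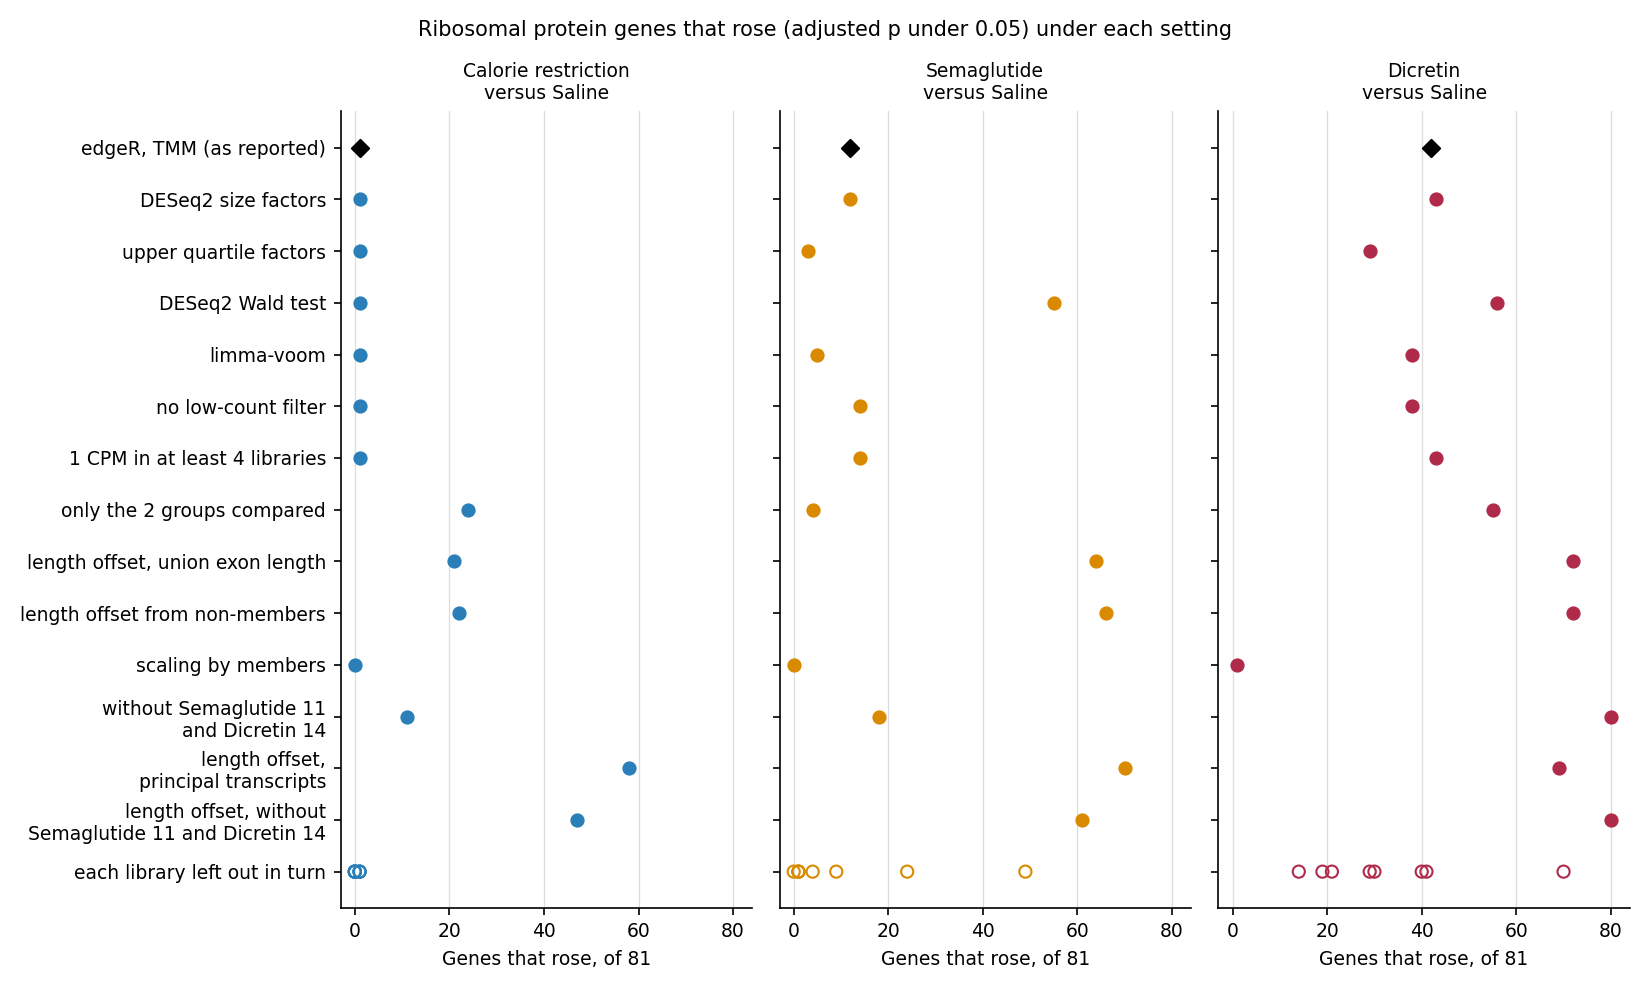
Number of the 81 tested members that rose (x axis) in the 3 comparisons against saline under each setting (y axis), with a black diamond for the model as reported, filled points for the alternatives and open points on the last line for each library left out in turn. In Dicretin against saline it runs from 1 with scaling by members to 80 without Semaglutide 11 and Dicretin 14, and from 14 to 70 with a library left out.

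Members varied together from liver to liver. Within groups, the median Pearson r between pairs of members was 0.95 over the 16 libraries, against 0.00 for a sample of 1845 genes tested, and it was 0.85 with the exon-length offset and 0.55 with the principal transcript offset. Without an offset it was 0.80 for the mitochondrial ribosomal proteins, 0.91 for oxidative phosphorylation subunits and 0.82 for proteasome subunits. For the 722 non-members with principal transcripts under 1000 bases it was 0.45. With the principal transcript offset these values were 0.29, 0.35, 0.54 and 0.00 in the same order. The proteasome value was then close to that of the members. All pairs share the libraries, their depth and the length trend, so r is a description. The median within-group SD of a member was 0.18 log2 units in saline, 0.16 in calorie restriction, 0.55 in Semaglutide and 0.45 in Dicretin. With the principal transcript offset it was 0.11, 0.11, 0.17 and 0.20.

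Scaling by the members showed which of them departed from the common shift. In Dicretin against saline Rpl13a still rose, by 0.77 beyond the others, and Rps2 (-0.45) and Rpl31 (-0.42) fell, the only 3 calls among members in a setting where 35.8% of all genes were called. In Dicretin against calorie restriction Rpl13a (0.66), Rpl41 (0.59) and Rps24 (0.49) rose and Rpl22l1 (-1.06) fell, with 17.9% of all genes called. In Dicretin against Semaglutide Rpl13a (0.52) rose and Rpl22l1 (-1.05) fell, with 14.7% called.

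Ribosomes can draw on second gene copies for several proteins, and some copies are expressed in liver. Per kilobase of principal transcript, Rpl36al stood at 557.1 CPM and its parent Rpl36a at 308.6. Rps27l, a p53 target, stood at 431.2 and Rps27 at 751 on that scale, and at 263.7 and 248.4 per kilobase of all exons, so no order is given. Rpl22l1, which Rpl22 is known to repress, stood at 33.5 against 335.9 for Rpl22 per kilobase of principal transcript. Of the 4 copies among the members tested, Rpl7l1 and Rpl36al rose under Dicretin, whereas Rps27l had 0.33 ± 0.26 (adjusted p = 0.345, edgeR) and Rpl22l1 0.06. Differences between a copy and its parent were not tested. Rpl22 measured 117.3 to 152.7 CPM in saline and 88.0, 159.3, 196.7 and 209.8 CPM in Dicretin, where animal 14 was again lowest. Rps4l, a copy of Rps4x annotated as a transcribed processed pseudogene and so no member, measured 10.7, 16.8, 12.9 and 14.1 CPM in saline and 19.5, 20.7, 24.0 and 28.3 CPM in Dicretin. The groups did not overlap, and it rose by 0.76 ± 0.23 (adjusted p = 0.0133, edgeR). Under Semaglutide it rose by 0.88 ± 0.23 (adjusted p = 0.0342, edgeR), a call lost without Semaglutide 11 or without Saline 35, 73 or 78.

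Some proteins of the ribosome carry other names. Rack1, the scaffold on the small subunit, measured 217 ± 26.9 CPM in saline, 390.4 ± 122.1 in Dicretin and 413.9 ± 181.1 in Semaglutide, and it rose in both (0.85 ± 0.24, adjusted p = 0.0105, and 0.93 ± 0.24, adjusted p = 0.0361, edgeR). The call under Semaglutide was lost without Semaglutide 11 or without Saline 35, 50 or 73. Fau, which encodes a ribosomal protein fused to a ubiquitin-like protein, had 0.71 ± 0.30 under Dicretin (adjusted p = 0.0691, edgeR).

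Genes that serve the ribosome were followed in lists chosen by function. Of 37 initiation and elongation factors, 21 rose and 0 fell under Dicretin against saline (median 0.47), where 17.5% and 19.2% of all genes did. Eif4e, which binds the mRNA cap, rose from 46.8 ± 4.64 to 86.1 ± 11.7 CPM, a log2 fold change of 0.88 ± 0.14 (adjusted p = 0.000107, edgeR). Eif6 (0.80), which keeps the large subunit from joining too early, Eif2s1 (0.78), a target of stress kinases, and Eif5a (0.66) rose too. Of the same 37, 1 rose under Semaglutide, Eef1g (0.52), and 1 fell under calorie restriction, Eif4a2 (-0.85), where 1.56% of all genes rose under the former and 4.11% fell under the latter. Eef1g lost the call without Semaglutide 11 or 31 or Saline 35, 50 or 73, and Eif4a2 without any 1 of the 8 libraries compared except calorie restriction 8. The Dicretin calls of Eif4e, Eif6, Eif2s1 and Eif5a held with each library left out and were lost with scaling by members.

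Of 55 genes of ribosome assembly in the nucleolus, 30 rose and 1 fell under Dicretin (median 0.52), 2 rose under Semaglutide (median 0.03), and 3 rose and 1 fell under calorie restriction (median 0.10). Of all genes, 17.5%, 1.56% and 3.42% rose and 19.2%, 2.62% and 4.11% fell in these comparisons. Gnl3, the nucleolar protein nucleostemin, measured 25.1 ± 2.51 CPM in saline, 53.6 ± 6.73 in Dicretin, 38.1 ± 4.27 in Semaglutide and 22.6 ± 1.83 in calorie restriction. It rose by 1.09 ± 0.13 under Dicretin (adjusted p = 5.29e-06, edgeR) and by 0.60 ± 0.13 under Semaglutide (adjusted p = 0.0138, edgeR), a call that was lost without Saline 35 or Saline 50. Nop58, a core protein of box C/D particles, rose under Dicretin by 1.11 ± 0.18, and Bop1 and Ftsj3, of large-subunit maturation, by 0.88 and 0.79. Against Semaglutide, Dicretin had 22 of the 55 higher and 1 lower (14.8% and 17.1% of all genes), with Nop58 at 1.12, Bysl at 1.22, Nop2 at 0.98 and Ftsj3 at 0.76. With scaling by members the medians of the translation factors and assembly genes under Dicretin turned to -0.11 and -0.06.

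Among 35 signalling and transcription genes known to act on these messages, 10 rose and 4 fell under Dicretin (17.5% and 19.2% of all genes), and 2 fell under calorie restriction (4.11%). Sesn1, an inhibitor of mTORC1 signalling, fell under Dicretin by 1.08 on the log2 scale, from 11.3 ± 2.14 to 5.34 ± 0.408 CPM. Max, the partner of Myc, and Mdm2 rose by 0.79 each. Under calorie restriction Eif4ebp1, the inhibitor of Eif4e, fell from 50.7 ± 3.48 to 26.1 ± 3.89 CPM (-0.96 ± 0.17, adjusted p = 0.00194, edgeR), and Mtor fell by 0.67, a call lost without calorie restriction 7, 8 or 52 or Saline 35, 50 or 73. Ddit4, another mTORC1 inhibitor, was 16.1 ± 3.92 CPM in Dicretin and 2.37 ± 1.54 CPM in Semaglutide. The log2 fold change between them was 2.78 ± 0.35 (adjusted p = 8.95e-06, edgeR). Semaglutide itself gave -1.24 against saline (adjusted p = 0.0508, edgeR) and -1.43 against calorie restriction (adjusted p = 0.0189, edgeR). The latter call was lost without Semaglutide 31 or calorie restriction 7 or 52. The 2.78 is therefore not a rise under Dicretin alone. Of 8 host genes of small nucleolar RNAs, Snhg17 fell under Dicretin (-1.47 ± 0.23, adjusted p = 9.33e-05, edgeR).

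Other large complexes were measured beside the ribosome. Under Dicretin against saline, 20 of 72 oxidative phosphorylation subunits rose (median 0.46), 11 of 77 mitochondrial ribosomal proteins rose and 1 fell (median 0.23), and 3 of 38 proteasome subunits rose and 2 fell (median 0.15), with medians of -0.17, -0.38 and -0.50 under scaling by members. With 17.5% of all genes higher and 19.2% lower in that comparison, nothing is read from these counts. Under Semaglutide their medians were 0.27, 0.30 and 0.24 with 1 oxidative phosphorylation subunit called (1.56% of all genes rose), and under calorie restriction -0.07, -0.08 and 0.01. The cytosolic ribosomal proteins had the higher median in all 3 comparisons, at 0.66, 0.76 and 0.25, and these differences between lists were not tested.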

How the data were processed

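Poly(A)-selected, directional libraries were made from Trizol RNA of flash-frozen livers, per the labels' protocols. The submitters' processing notes list TopHat2 2.1.1, featureCounts and mm10, and the counting options, strand setting and annotation release are not given in the sources used here. The authors deposited raw counts per gene as whole numbers without normalization, and all 16 columns were matched to an animal by its number.

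Counts were tested in R 4.3.3 with edgeR 4.0.16 (filterByExpr, TMM, robust glmQLFit, 1 mean per group, glmQLFTest), in 1 fit of all 16 libraries. Benjamini-Hochberg adjustment ran over the 12910 genes tested, with a threshold of 0.05. The scripts were tested on simulated data. CPM used TMM-scaled totals. Lengths and pseudogene overlap came from GENCODE M21. Length offsets were loess trends (span 0.5) per library. Alternatives were other scalings, DESeq2 1.42.0, limma 3.58.1 (voom), other filters, fits of only the 2 groups, length offsets, scaling by members, and libraries left out. The offset on principal transcripts, the offset combined with leaving out Semaglutide 11 and Dicretin 14, and the split of members by sequence uniqueness were added after seeing the data.

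Members and gene lists were chosen with earlier results of these data known. Members were named if among the 6 highest or 6 lowest fold changes of a comparison, on a fixed panel of 14, or a second gene copy. Other genes were named if ribosomal, or among the 4 smallest p-values of their list in a comparison. Lists of called genes give other names without values, and the choice of which named genes to describe, and of Rps26, Rps29 and other singled-out genes, was made after their values were seen. A few genes named by these rules are left out of the text. P-values set differences of group means against the spread between these animals.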

Additional observations from a re-analysis of the deposited data

Results flagged for a closer look

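Of 184 groups of 4 libraries examined (43 members, the share of counts, the length slope and the ratio of the subunits, in each of 4 groups), 16 had a highest or lowest library whose gap to the nearest of the others exceeded the critical value of Dixon's test as a share of the group's range. Chance gives about 1 in 20 such groups, and the members share their libraries, so these are not separate results.

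Semaglutide 11 stood far above its group in 11 members, with 814 CPM of Rpl19 (317.8 to 385.7 in the other 3 livers), 62.77 of Rpl22l1 (17.1 to 19.6), 201.7 of Rpl23a (137.9 to 144.4) and 261.6 of Rpl29 (159.6 to 176). It also had 634.9 CPM of Rpl3 (353.4 to 376.4), 404.7 of Rpl34 (132.7 to 176.9), 923.2 of Rplp0 (450.6 to 523.8) and 655.3 of Rps16 (245.7 to 311.9). The remaining 3 were Rps18 at 837.1 CPM (235.2 to 325), Rps21 at 368.8 (107.2 to 150.7) and Rps26 at 316.6 (197.1 to 216.8). Dicretin 14 stood below its group in Rpl21, at 284.1 CPM against 428.7 to 434.3, and in Rpl23, at 307.2 against 416.6 to 420.

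In saline, Rps27l of animal 35 was low at 149.5 CPM against 184.1 to 191.2. Under calorie restriction, Rpsa of animal 52 was low at 385.8 CPM against 436.3 to 440.2, and the length slope of animal 8 was 0.004132 against 0.09501 to 0.1098 in the other calorie-restricted livers.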

How the results depend on the processing

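The medians against saline were 0.22 or higher in every setting run on all 16 libraries except scaling by members, which sets them near 0 by construction. Calls did not always hold. In Dicretin against saline, where 42 members were called, the count was 72 with the exon-length offset, 72 with that offset from non-members, 69 with the principal transcript offset, 80 without Semaglutide 11 and Dicretin 14, 80 with that and the offset, and 3 with scaling by members (median 0.000187). In Semaglutide against saline (12) it was 3 with upper quartile factors, 55 with DESeq2, 5 with limma-voom, 4 with only the 2 groups, 64, 66 and 70 with the 3 offsets in the same order, 61 with the offset and both libraries out, and 0 with scaling by members (median 0.01278). In calorie restriction against saline (1) it was 24 with only the 2 groups, 21, 22 and 58 with the offsets (principal transcript median 0.4965), 11 without both libraries, 47 with the offset too, and 0 with scaling by members (median 0.009199).

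In Dicretin against calorie restriction (12) it was 19 and 19 with the exon offsets and 4 with scaling by members (median -0.03801). It was 69 without both libraries and 56 with the offset too. Between treatments, the share of all genes called without both libraries is not given here, so nothing is read from those counts. In Semaglutide against calorie restriction (0 with edgeR, 47 at an unadjusted p under 0.05) DESeq2 called 4, and the median was 0.03303 with scaling by members, 0.07541 with the principal transcript offset and 0.1253 with the offset and both libraries out. In Dicretin against Semaglutide (1, Rpl22l1) it was 0 with no low-count filter, 0 with only the 2 groups (3 at an unadjusted p under 0.05 in the full fit), 4 and 4 with the exon offsets, 7 with the principal transcript offset, 2 with scaling by members, 34 without both libraries (median 0.3754) and 34 with the offset too.

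With 1 library left out, the counts ranged over 14 to 70, 0 to 49, 0 to 1, 4 to 28, 0 to 5 and 1 to 3 in the 6 comparisons in this order, and the medians over 0.50 to 0.84, 0.43 to 0.93, 0.19 to 0.33, 0.23 to 0.51, 0.19 to 0.67 and -0.25 to 0.21. In Semaglutide against calorie restriction the 5 calls came without Semaglutide 51. In Dicretin against Semaglutide 3 came without Semaglutide 11 and 2 without Dicretin 65. The shares of counts without the 20 most abundant genes were 2.334%, 2.717%, 3.714% and 3.394%.

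Values that changed sign with a call were, with scaling by members, Rps2 at -0.4465, Rpl31 at -0.4234 and Rplp2 at -0.01507 in Dicretin against saline, and Rpl36al at -0.005245, Gnl3 at -0.0402, Bop1 at -0.08574 and Eef1g at -0.137 in Semaglutide against saline. Rpl30 was -0.3657 in Dicretin against calorie restriction with the principal transcript offset. In Dicretin against Semaglutide without both libraries, Rplp1 was 0.4306, Rplp2 0.4173 and Rack1 0.4248, and with the offset too 0.3403, 0.376 and 0.5017. Scaling by members centres them by construction, and for the other settings the cause was not tested.

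No paired analysis was possible because no 2 groups share an animal number. With 4 animals a group the exact tests of the length slope could not go below 0.0286. At 12.1 to 18.8 M counts a library, Rpl10l had 0 counts in all 16 libraries.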
